A study of Mus musculus with 12 samples.

Results

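The 10 transcription factors that are known to steer CD8+ T cells between effector and memory fates were followed by RNA sequencing in mouse CD8+ T cells: Tbx21, Eomes, Tcf7, Lef1, Id2, Id3, Prdm1, Bcl6, Zeb2 and Runx3. They were chosen by name, with 1 row of the deposited table per symbol, so the set is 10 of 13780 genes. Where a symbol repeats, the rule takes the row with the highest total count. All 10 reached the minimum of 1 CPM, counts scaled to library size, in at least 3 libraries, as did 13767 genes in all, and these were tested. The cells came from spleens of wild type C57BL/6J mice of 8 to 12 weeks of age and were taken by positive selection on magnetic beads, without a sort on a naïve phenotype. There were 4 libraries in each of 3 groups. The group called naïve was frozen without activation and came from 4 donors. The media group spent 72 h in plain medium with IL-2 and beads that carry antibodies to CD3 and CD28, and the lactate group had the same culture with 40 mM sodium lactate added. The 8 activated libraries came from 5 donors, and 3 of these donors are present in both activated groups when a donor tag that recurs in the other run of library numbers is read as another mouse. The lactate group was compared with plain medium and not with sodium chloride, so lactate, sodium and osmolarity cannot be told apart. Only the 8 activated libraries are from cells grown for 72 h outside the animal, so comparisons with naïve cells also differ by culture. No group holds effector or memory cells formed in an infection.

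After a CD8+ T cell meets its antigen it divides, and its progeny differ in fate. Short-lived effector cells kill infected or transformed cells and mostly die after the response, whereas memory precursors persist and can divide again. The T-box factors T-bet (Tbx21) and Eomesodermin (Eomes) drive cytotoxic and interferon-γ genes, with T-bet favouring effector cells and Eomesodermin also needed for long-lived memory cells. TCF-1 (Tcf7) and LEF-1 (Lef1) are related high-mobility group factors of naïve and stem-like memory cells. Id2 and Id3 lack a DNA-binding domain and bind E proteins, which keeps these off E-box sites, and Id2 is tied to effector cells and Id3 to memory precursors. Blimp-1 (Prdm1) and Bcl-6 (Bcl6) are repressors that oppose each other. Zeb2 is a zinc finger repressor that acts with T-bet in terminal effector cells, and Runx3 maintains the cytotoxic CD8+ lineage.

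Of the 10 factors, 4 changed between lactate and media at an edgeR adjusted p of at most 0.01. Eomes and Zeb2 were higher with lactate, and Bcl6 and Runx3 were lower. Of all tested genes, 13.9% were higher and 11.1% lower. With the donor as a block, only Eomes kept its call. The 250 bases before the furthest upstream start listed for each gene in the RefSeq table were searched for short motifs that proteins of these families bind, and the windows of these 4 genes are shown because they are the factors that changed. They lie at chr9:118477939-118478188 on the plus strand for Eomes, at chr2:45117443-45117692 on the minus strand for Zeb2, at chr16:23988853-23989102 on the minus strand for Bcl6 and at chr4:135120395-135120644 on the plus strand for Runx3, in build GRCm38.p6 with starts and sequences from RefSeq. Each is written 5′ to 3′ along the strand of the gene and ends at the base before the start, and capitals mark the motif matches.
Eomes: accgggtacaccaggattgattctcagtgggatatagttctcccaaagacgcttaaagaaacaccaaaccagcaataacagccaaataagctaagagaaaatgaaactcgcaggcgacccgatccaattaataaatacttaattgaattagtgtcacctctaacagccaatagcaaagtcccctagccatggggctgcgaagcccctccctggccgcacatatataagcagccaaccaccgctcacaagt
Zeb2: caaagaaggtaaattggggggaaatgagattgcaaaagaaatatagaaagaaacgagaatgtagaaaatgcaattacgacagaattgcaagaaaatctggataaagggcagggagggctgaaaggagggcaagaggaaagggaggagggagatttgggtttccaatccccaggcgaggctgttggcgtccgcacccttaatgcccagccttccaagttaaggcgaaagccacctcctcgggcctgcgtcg
Bcl6: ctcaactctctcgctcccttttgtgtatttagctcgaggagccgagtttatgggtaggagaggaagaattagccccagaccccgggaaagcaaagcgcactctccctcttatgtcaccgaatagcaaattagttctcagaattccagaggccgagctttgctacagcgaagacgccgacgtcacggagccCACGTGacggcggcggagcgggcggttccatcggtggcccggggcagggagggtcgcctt
Runx3: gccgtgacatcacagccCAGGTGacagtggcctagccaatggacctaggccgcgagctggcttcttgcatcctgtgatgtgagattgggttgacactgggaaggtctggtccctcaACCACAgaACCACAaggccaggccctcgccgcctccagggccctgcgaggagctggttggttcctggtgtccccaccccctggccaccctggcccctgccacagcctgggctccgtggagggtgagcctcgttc
Motifs were read on both strands. The E-box, CANNTG, was in the windows of 7 of the 10 factors and in 66.2% of the 32851 windows of all genes. Its form CACCTG, which ZEB proteins bind, is itself an E-box and was in 3 of 10 windows and in 17.2% of all. The RUNX motif TGTGGT was in 1 of 10 windows and in 14.0% of all. In the windows shown, Bcl6 held 1 E-box at 60 bases before the start, and Runx3 held the ZEB form at 233 bases and the RUNX motif, read on the other strand, at 134 and 126 bases. Eomes and Zeb2 held none of these letters in this stretch. The TCF/LEF motif CTTTGA was in 0 of 10 windows and in 13.8% of all, and the T-box motif GGTGTGA was in 0 of 10 and in 3.33% of all. The other windows with the ZEB form were those of Tbx21, at 196 bases, and Prdm1, at 87 bases. The windows of Prdm1, Id2 and Id3 lie inside the gene bounds of GENCODE, which has starts further upstream for these genes. For Tcf7 the deposited gene length (3019 bases) exceeds the exon bases of GENCODE (2625). Whether its window or others hold exon bases of longer transcripts was not tested. A match is a match of letters and not a bound site.

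Total counts per library ran from 14726904 to 21478137. The libraries carry running numbers in a low run of 8 and a high run of 4, and the high run holds 1 naïve, 1 media and 2 lactate libraries, so differences within it rest on a single media library. The summed level of 5 CD8+ T cell markers (Cd8a, Cd8b1, Cd3e, Cd3d, Trac) was 1776 to 3566 CPM in naïve, 2608 to 3230 CPM in media and 2032 to 2517 CPM in lactate libraries. Markers of myeloid, NK, B, dendritic and red cells were far higher in naïve libraries. The sum of 7 myeloid markers was 554 to 1707 CPM in naïve, 11.9 to 18.4 CPM in media and 5.43 to 10.9 CPM in lactate libraries, and 6 of the 7 were below 1 CPM in every activated library. The sum of 6 NK cell markers was 48.7 to 148 CPM in naïve, 1.09 to 1.57 CPM in media and 2.36 to 6.35 CPM in lactate libraries, and 5 of the 6 were below 1 CPM in every activated library. The sum of 6 B cell markers was 2144 to 4909 CPM in naïve, 428 to 695 CPM in media and 248 to 330 CPM in lactate libraries. The sum of 5 dendritic cell markers was at least 44.0 CPM in naïve and at most 2.90 CPM in activated libraries, and that of 4 red cell markers was at least 84.1 CPM and at most 1.90 CPM. The sum of 4 CD4+ T cell markers was 44.3 to 76.5 CPM in naïve, 48.0 to 60.7 CPM in media and 83.7 to 96.6 CPM in lactate libraries. Most of that sum in activated cells was Zbtb7b (means of 47.4 CPM in media and 81.4 CPM with lactate), while Cd4 had a mean of 22.1 CPM in naïve, 0.348 CPM in media and 0.541 CPM in lactate libraries, and 2 of the 4 markers were below 1 CPM in every activated library. In bulk RNA a change in the number of cells of a type and a change in RNA per cell cannot be told apart.

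The factors differed widely in level. The scale used to rank genes against each other is TPM, which also divides by gene length. In naïve cells Tcf7 stood first with a mean of 1804 TPM (1391 to 2305 TPM over 4 libraries). Lef1, Id2, Id3 and Runx3 followed with means of 189.7, 164.8, 157.9 and 93.6 TPM, and the ranges of neighbours in that order overlapped. Eomes, Bcl6 and Tbx21 had means of 27.4, 19.3 and 14.4 TPM, again with overlapping neighbours, and Zeb2 and Prdm1 came last with 6.60 and 5.48 TPM.

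The order shifted with activation. In media Tcf7 remained highest (496 TPM), and the next 5 were Runx3 (192.7 TPM), Id3 (115.0 TPM), Id2 (84.4 TPM), Tbx21 (57.2 TPM) and Lef1 (52.4 TPM), each overlapping its neighbour in range. Prdm1 (22.2 TPM), Bcl6 (6.86 TPM) and Eomes (4.14 TPM) were next, and only Bcl6 and Eomes of these overlapped. Zeb2 was lowest at 0.384 TPM. With lactate, Tcf7 (329.7 TPM) was followed by Id3, Runx3, Id2 and Tbx21 with 130.7, 113.1, 90.6 and 67.9 TPM, overlapping neighbour by neighbour. Lef1 had 32.5 TPM, and Eomes and Prdm1, with overlapping ranges, had 13.8 and 12.1 TPM. Bcl6 (1.53 TPM) and Zeb2 (1.33 TPM) were lowest, with overlapping ranges. Eomes thus overlapped Bcl6 in media and stood above it with lactate.

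**Figure D1:**
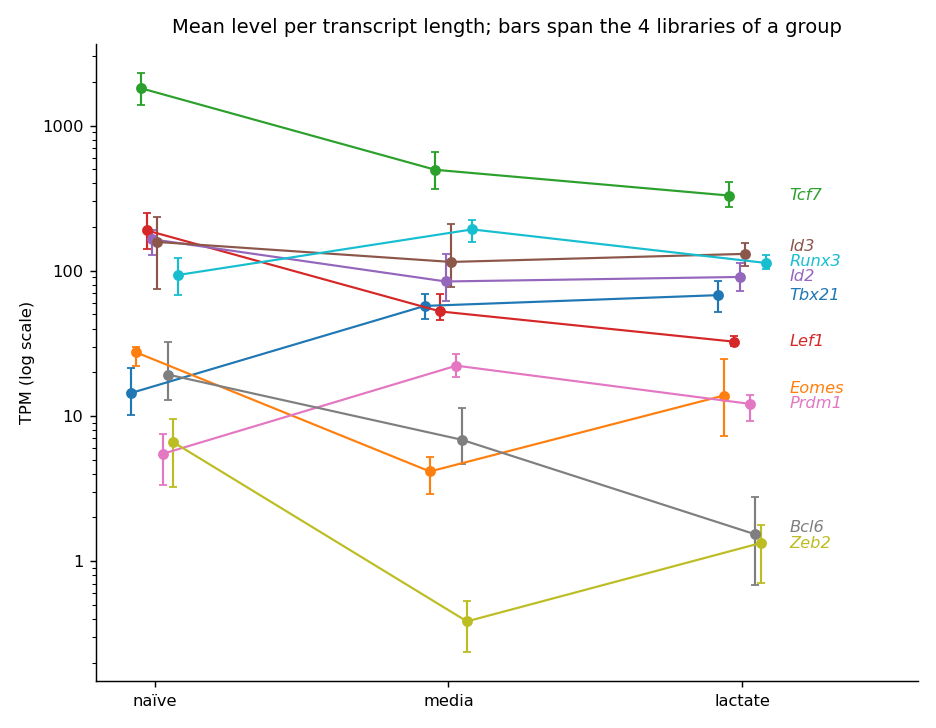
Level of each factor in TPM on a log axis by group; points are means of 4 libraries and bars span the lowest to the highest library. Tcf7 is highest in all 3 groups, Zeb2 and Eomes dip in media, and Bcl6 falls at each step.

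Eomes and Zeb2 were 3.62-fold and 3.79-fold higher with lactate than in media, and Bcl6 and Runx3 were 4.00-fold and 1.55-fold lower. The comparison asks what sodium lactate present during activation did to the factors. Fold changes are from 1 quasi-likelihood model fitted to all 12 libraries in edgeR, with Benjamini-Hochberg adjustment across the tested genes, and calls were made at adjusted p values up to 0.01. Of the 10 factors 2 were higher with lactate, where 13.9% of all tested genes were, and 2 were lower, where 11.1% of all were. The lactate and media libraries did not overlap for 6 of 10 factors, against 44.7% of all tested genes. The summed CD8+ T cell, B cell and myeloid markers were lower in every lactate than in every media library. The summed NK and CD4+ T cell markers were higher in every lactate library. Of the 5 CD8+ T cell markers, 2 were called lower, Cd3e and Cd3d, and 3 were not called. Among these 3, Cd8b1 had means of 425.8 CPM in media and 519.2 CPM with lactate. Most of the B cell sum was Ighm (means of 535.9 and 269.5 CPM). Most of the myeloid sum was Cd68 (14.2 and 8.22 CPM), and most of the NK sum was Klre1 (1.08 and 3.45 CPM). The part of these markers in the differences of the factors was not tested. The median log2 fold change was -0.11 over the 10 factors and -0.0016 over all tested genes, and the median absolute log2 fold change was 0.59 and 0.42.

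The T-box pair came first in role. Eomes (ENSMUSG00000032446, chromosome 9, 118478212 to 118486132, plus strand, GRCm38) had 26.7, 38.3, 33.7 and 35.0 CPM in naïve replicates 1 to 4. In media replicates 1 to 4 it had 5.23, 4.75, 3.40 and 6.58 CPM, and with lactate it had 30.7, 9.28, 17.0 and 15.2 CPM. Every lactate library lay above every media library, and lactate replicate 1 lay within the naïve range. Eomes rose 3.62-fold with lactate over media (log2 fold change 1.86 ± 0.32 SE, edgeR adjusted p = 0.000783). The log2 difference was 2.53, 1.42 and 1.19 in the 3 donors with both libraries, and Eomes kept its call with the donor as a block (log2 fold change 1.74, edgeR adjusted p = 0.00626). Without any 1 library the log2 fold change was between 1.47 and 2.07.

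Tbx21 (ENSMUSG00000001444, chromosome 11, 97098071 to 97115331, minus strand) had 8.96, 16.2, 10.0 and 7.11 CPM in naïve cells, 39.6, 40.3, 33.2 and 51.9 CPM in media and 64.2, 40.0, 54.8 and 55.1 CPM with lactate. The activated groups overlapped, with lactate replicate 2 among the media libraries. The log2 fold change of lactate over media was 0.38 ± 0.23 SE (edgeR adjusted p = 0.213), with a 95% interval of -0.12 to 0.87. Lactate was higher in 3 of 3 donors, by 0.69, 0.27 and 0.088 on the log2 scale. The 2 T-box genes therefore took different shares: the ratio of Eomes to Tbx21 in TPM, computed within each library, was 0.0614 to 0.0790 in media and 0.139 to 0.286 with lactate, without overlap. In naïve cells it was 1.41 to 2.95.

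**Figure D2:**
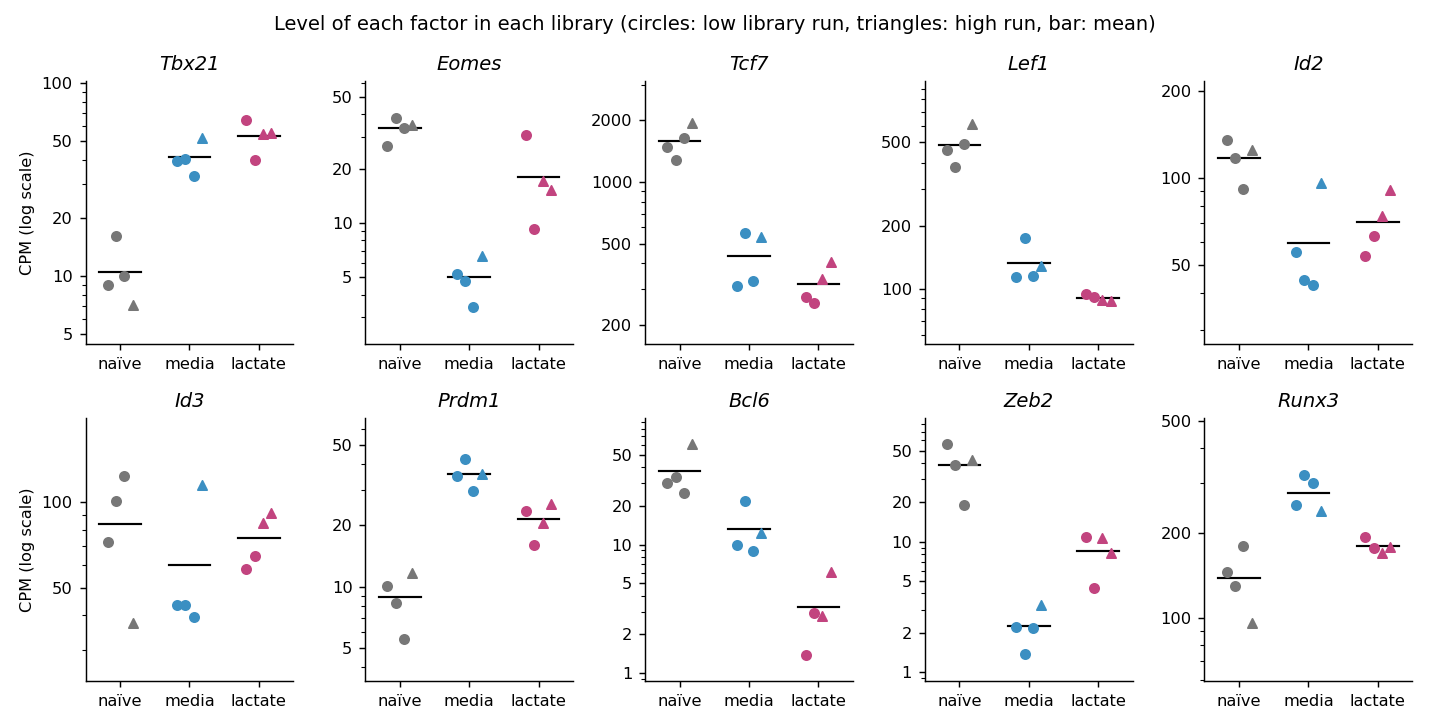
CPM of each factor on a log axis in each of the 12 libraries; circles are the low library run, triangles the high run and bars the mean of 4. For Eomes, Zeb2, Bcl6, Runx3, Lef1 and Prdm1 the lactate and media points do not overlap, and the media triangle of Id3 stands at 114.8 CPM, apart from the other media points.

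Zeb2 (ENSMUSG00000026872, chromosome 2, 44983632 to 45117395, minus strand) was the least abundant factor in media. It had 2.22, 1.36, 2.17 and 3.26 CPM there, which are 25 to 52 counts, and 10.8, 4.40, 10.8 and 8.19 CPM with lactate, which are 84 to 211 counts. All lactate libraries lay above all media libraries, and the lowest was lactate replicate 2. Zeb2 rose 3.79-fold (log2 fold change 1.92 ± 0.38 SE, edgeR adjusted p = 0.00181). It was higher in 3 of 3 donors, by 0.98 to 2.23 on the log2 scale. With the donor as a block the log2 fold change was 1.55 and the call was lost (edgeR adjusted p = 0.0366), and in limma voom it was 1.88 (adjusted p = 0.0192). An antisense gene in the table, Zeb2os, covers 3.27% of the exon bases of Zeb2 and had 0 to 1 counts per media library and 1 to 6 per lactate library. Its relative Zeb1, a factor of naïve and memory cells, had mean levels of 44.4 CPM and 41.7 CPM in media and lactate libraries (log2 fold change -0.09 ± 0.29 SE, edgeR adjusted p = 0.836). The ratio of Zeb1 to Zeb2 in TPM was 21.8 to 66.4 in media and 7.52 to 17.1 with lactate, without overlap.

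Bcl6 (ENSMUSG00000022508, chromosome 16, 23965052 to 23988852, minus strand) had 9.90, 21.8, 8.92 and 12.4 CPM in media and 1.38, 2.93, 2.76 and 6.07 CPM with lactate. The groups did not overlap, and media replicate 2 and lactate replicate 4 were the highest of their groups. Bcl6 was 4.00-fold lower with lactate (log2 fold change -2.00 ± 0.44 SE, edgeR adjusted p = 0.00339), and it was lower in 3 of 3 donors, by -2.74, -1.57 and -1.02 on the log2 scale. The call was lost without media replicate 2 (log2 fold change -1.65, edgeR adjusted p = 0.0130), without lactate replicate 2 (-1.95, adjusted p = 0.0111) and without lactate replicate 3 (-1.93, adjusted p = 0.0123). With the donor as a block the log2 fold change was -1.77 (edgeR adjusted p = 0.0273).

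Prdm1 (ENSMUSG00000038151, chromosome 10, 44437177 to 44528501, minus strand), the repressor that opposes Bcl6, had 35.2, 42.4, 29.5 and 35.7 CPM in media and 23.6, 16.0, 20.5 and 25.5 CPM with lactate. The groups did not overlap, but the log2 fold change of -0.74 ± 0.21 SE did not pass the threshold (edgeR adjusted p = 0.0161; 95% interval -1.20 to -0.27). Both repressors thus had lower estimates with lactate, and the ratio of Bcl6 to Prdm1 in TPM was 0.234 to 0.428 in media and 0.0489 to 0.198 with lactate, without overlap.

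Runx3 (ENSMUSG00000070691, chromosome 4, 135120652 to 135177990, plus strand) had 251.3, 319.8, 300.4 and 238.4 CPM in media and 192.9, 176.2, 169.4 and 177.7 CPM with lactate. The lactate libraries lay close together below all media libraries. Runx3 fell 1.55-fold (log2 fold change -0.63 ± 0.16 SE, edgeR adjusted p = 0.00882), and it was lower in 3 of 3 donors, by -0.38 to -0.77 on the log2 scale. This call lay near the threshold. It was lost without any 1 of the 4 lactate libraries, media replicates 1, 2 or 3, or naïve replicates 1 or 2, with log2 fold changes of -0.56 to -0.68 and edgeR adjusted p of 0.0102 to 0.0315, and with the donor as a block (log2 fold change -0.52, adjusted p = 0.125). Runx1, a relative of Runx3 that binds the same motif, had a mean of 13.5 CPM in media (10.5 to 18.6 CPM) and of 3.30 CPM with lactate (2.82 to 3.89 CPM), and it fell as well (log2 fold change -2.03 ± 0.21 SE, edgeR adjusted p = 6.36e-05). The ratio of Runx3 to Runx1 in TPM was 40.8 to 68.5 in media and 104.7 to 164.5 with lactate, without overlap.

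TCF-1 and LEF-1 had lower estimates with lactate, and neither passed the threshold. Tcf7 (ENSMUSG00000000782, chromosome 11, 52252371 to 52283014, minus strand) had 311.4, 562.7, 326.1 and 535.3 CPM in media and 272.9, 257.2, 334.8 and 403.7 CPM with lactate, and the groups overlapped. Its log2 fold change was -0.45 ± 0.22 SE (edgeR adjusted p = 0.119; 95% interval -0.93 to 0.02). Lef1 (ENSMUSG00000027985, chromosome 3, 131110471 to 131224356, plus strand) had 113.3, 174.1, 115.4 and 128.6 CPM in media and 94.7, 91.0, 88.4 and 86.9 CPM with lactate. Its groups did not overlap, the lactate libraries lay close together (90.3 ± 3.44 CPM, SD, n = 4), and the log2 fold change was -0.56 ± 0.16 SE (edgeR adjusted p = 0.0140). The antisense gene Gm43352 covers 13.7% of the exon bases of Lef1 and had 9 to 38 counts per activated library. The ratio of Lef1 to Tcf7 in TPM overlapped between all pairs of groups, with geometric means of 0.105 in naïve cells, 0.107 in media and 0.0993 with lactate.

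The inhibitors of E proteins did not separate the activated groups. Id2 (ENSMUSG00000020644, chromosome 12, 25093799 to 25097140, minus strand) had 55.6, 44.6, 42.7 and 96.6 CPM in media and 53.8, 63.2, 73.8 and 91.1 CPM with lactate (log2 fold change 0.24 ± 0.25 SE, edgeR adjusted p = 0.486; 95% interval -0.30 to 0.77). Id3 (ENSMUSG00000007872, chromosome 4, 136143497 to 136145755, plus strand) had 43.5, 43.4, 39.4 and 114.8 CPM in media and 57.9, 64.7, 84.7 and 91.3 CPM with lactate (log2 fold change 0.31 ± 0.39 SE, edgeR adjusted p = 0.563; 95% interval -0.53 to 1.15). For both, the media library of the high run was the highest activated library. Within the low run the lactate minus media difference of mean log2 CPM was 0.30 for Id2 and 0.54 for Id3, and within the high run it was -0.24 and -0.38. For the other 8 factors the difference had the same sign in both runs: it was 1.92 and 1.27 for Eomes, 1.82 and 1.49 for Zeb2, -2.56 and -1.57 for Bcl6, -0.65 and -0.46 for Runx3, -0.86 and -0.64 for Prdm1, -0.50 and -0.55 for Lef1, -0.54 and -0.54 for Tcf7, and 0.43 and 0.083 for Tbx21. E proteins are the partners of Id2 and Id3, and of these Tcf12 fell from 163.9 to 106.3 CPM (log2 fold change -0.62 ± 0.11 SE, edgeR adjusted p = 0.000961) whereas Tcf3 had 196.4 and 223.3 CPM (adjusted p = 0.0904).

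**Figure D3:**
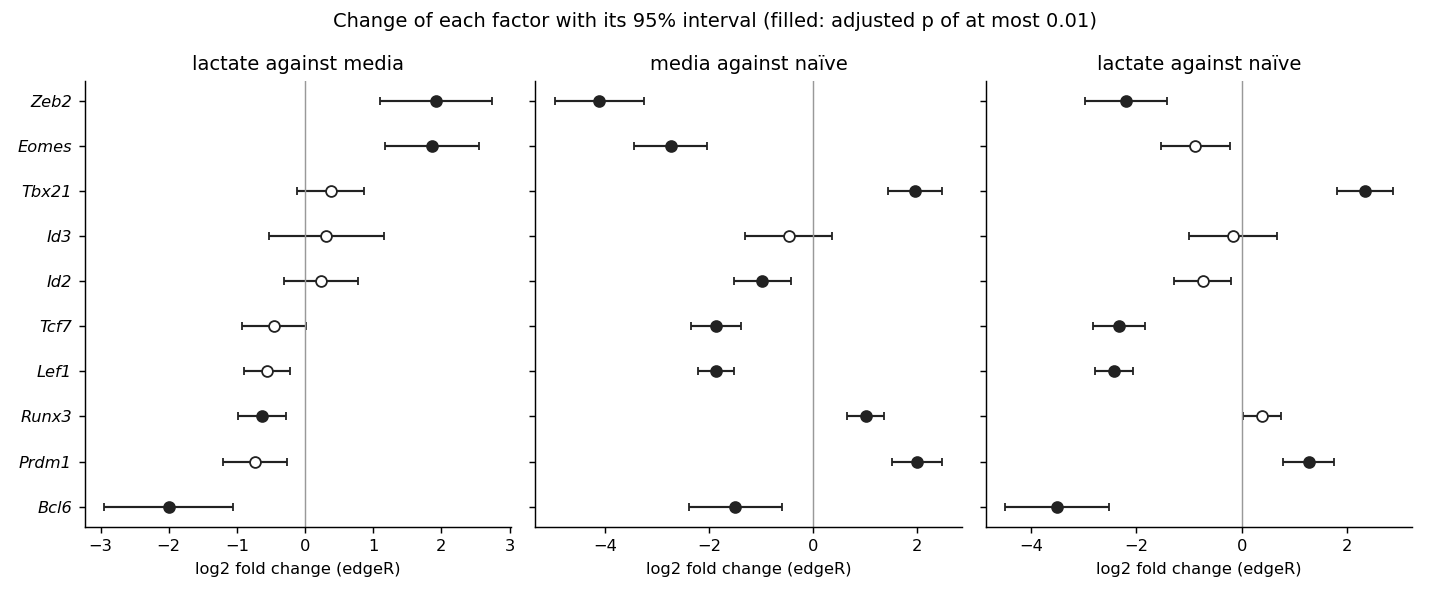
Log2 fold change of each factor from edgeR in the 3 comparisons, with 95% intervals; filled points have an adjusted p of at most 0.01. Lactate against media has filled points for Zeb2, Eomes, Runx3 and Bcl6, while 9 of 10 factors are filled in media against naïve.

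**Figure D4:**
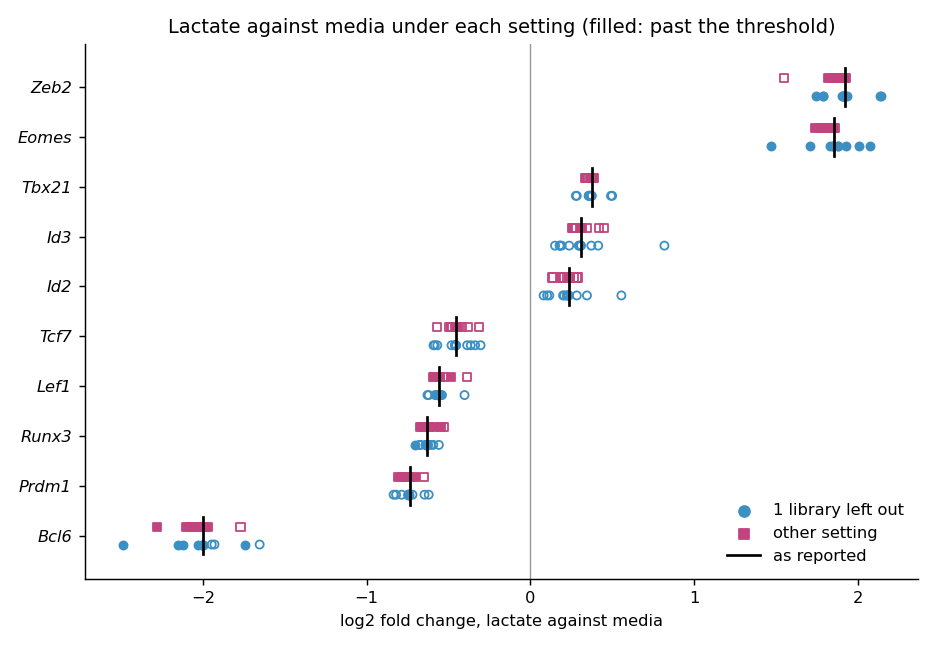
Log2 fold change of lactate against media for each factor as reported (black bar), with 1 library left out (circles) and under other settings (squares); filled symbols passed the threshold of their setting. Estimates for Eomes are filled in every setting drawn, those of Zeb2 are open in 2, and Runx3 is mostly open among the circles.

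Activation in media against naïve cells changed 9 of the 10 factors. Of these, 3 were higher, where 28.5% of all tested genes were, and 6 were lower, where 29.0% of all were. The groups did not overlap for 8 of 10 factors, against 61.2% of all tested genes. The median log2 fold change was -1.24 over the factors and -0.03 over all tested genes. The naïve libraries also carry the markers of myeloid, NK, B and red cells given above, which the activated libraries hold at far lower levels, and the part of these in the differences was not tested.

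The 3 factors that rose were Tbx21, by 3.90-fold (log2 fold change 1.96 ± 0.24 SE, edgeR adjusted p = 1.28e-05), Prdm1, by 4.01-fold (2.00 ± 0.22 SE, adjusted p = 5.81e-06), and Runx3, by 2.02-fold (1.01 ± 0.16 SE, adjusted p = 0.000137). Naïve libraries had 10.1, 8.35, 5.50 and 11.7 CPM of Prdm1 and 145.5, 129.7, 180.0 and 95.4 CPM of Runx3, all below the media libraries. Tcf7, Lef1 and Eomes fell. Tcf7 went from 1480, 1288, 1636 and 1950 CPM in naïve cells to at most 562.7 CPM in media, a 3.66-fold fall (log2 fold change -1.87 ± 0.22 SE, edgeR adjusted p = 1.06e-05). Lef1 went from 459.9, 378.9, 492.7 and 612.3 CPM to at most 174.1 CPM, also 3.66-fold (-1.87 ± 0.16 SE, adjusted p = 6.45e-07). Eomes fell 6.70-fold (-2.74 ± 0.32 SE, edgeR adjusted p = 9.50e-06).

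Zeb2 had the largest fall, 17.3-fold (log2 fold change -4.11 ± 0.40 SE, edgeR adjusted p = 1.65e-06), from 55.9, 38.5, 19.1 and 42.4 CPM in naïve replicates 1 to 4. Zeb2 is known to be expressed in myeloid and NK cells, and in the same 4 libraries the myeloid markers summed to 1707, 1438, 554 and 597 CPM and the NK markers to 148, 112, 48.7 and 65.5 CPM. Naïve replicate 3 was the lowest in both sums and in Zeb2. Naïve replicate 4 was above naïve replicate 2 in Zeb2 but below it in both sums. The part of these cells in the level of Zeb2 was not tested. Bcl6, which B cells also express, had 30.2, 33.8, 25.3 and 60.9 CPM in naïve cells, where the B cell markers summed to 2661, 4909, 2144 and 3523 CPM, and it fell 2.83-fold (-1.50 ± 0.41 SE, edgeR adjusted p = 0.00586). The call was lost without naïve replicate 4 (log2 fold change -1.17, edgeR adjusted p = 0.0166) and without media replicates 1, 3 or 4 (-1.38, -1.35 and -1.54, adjusted p of 0.0125 to 0.0213). Id2 had 135.2, 117.8, 92.0 and 125.4 CPM in naïve cells and fell 1.96-fold (-0.97 ± 0.25 SE, edgeR adjusted p = 0.00381), with media replicate 4 inside the naïve range. That call was lost without naïve replicate 1 (-0.92, edgeR adjusted p = 0.0106) or media replicates 1, 2 or 3 (-0.84 to -0.94, adjusted p of 0.0128 to 0.0141). Id3 ranged from 37.5 to 124.1 CPM among the naïve libraries and did not pass the test (-0.47 ± 0.39 SE, edgeR adjusted p = 0.296).

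Activation with lactate against naïve cells shares the naïve libraries with the comparison above and the lactate libraries with the first. It changed 6 factors: 2 were higher, where 33.0% of all tested genes were, and 4 were lower, where 32.0% of all were. The groups did not overlap for 7 of 10 factors, against 67.8% of all. Tbx21 rose 5.06-fold (log2 fold change 2.34 ± 0.24 SE, edgeR adjusted p = 2.29e-06) and Prdm1 2.40-fold (1.27 ± 0.22 SE, adjusted p = 0.000196). Bcl6 fell 11.3-fold (-3.50 ± 0.45 SE, edgeR adjusted p = 1.59e-05), Lef1 5.38-fold (-2.43 ± 0.16 SE, adjusted p = 6.20e-08), Tcf7 5.01-fold (-2.32 ± 0.23 SE, adjusted p = 1.38e-06) and Zeb2 4.57-fold (-2.19 ± 0.36 SE, adjusted p = 0.000108).

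Eomes, Id2 and Runx3, which were called in media against naïve, were not called with lactate against naïve. Eomes was 1.85-fold lower than in naïve cells (log2 fold change -0.89 ± 0.30 SE, edgeR adjusted p = 0.0174) and overlapped them, and it was called without lactate replicate 1 (-1.27, adjusted p = 0.000755). Runx3 was 1.30-fold higher (0.38 ± 0.16 SE, edgeR adjusted p = 0.0506) and also overlapped. Id2 was 1.67-fold lower without overlap (-0.74 ± 0.25 SE, edgeR adjusted p = 0.0165). It was called without naïve replicate 3, media replicate 4 or lactate replicate 4 (-0.93, -0.81 and -0.95, adjusted p of 0.00103 to 0.00722). Of 24 alternatives for each factor, Id2 gained the call in 10, Eomes in 5 and Runx3 in 1. For Id2 and Eomes these include the edgeR likelihood ratio test and DESeq2, and for Runx3 it was the term for the library run. For Eomes and Runx3 the direct test of lactate against media given above is the test of the difference between the 2 activated groups, and Id2 did not pass that test. Id3 again did not pass (-0.16 ± 0.39 SE, edgeR adjusted p = 0.714).

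**Figure D5:**
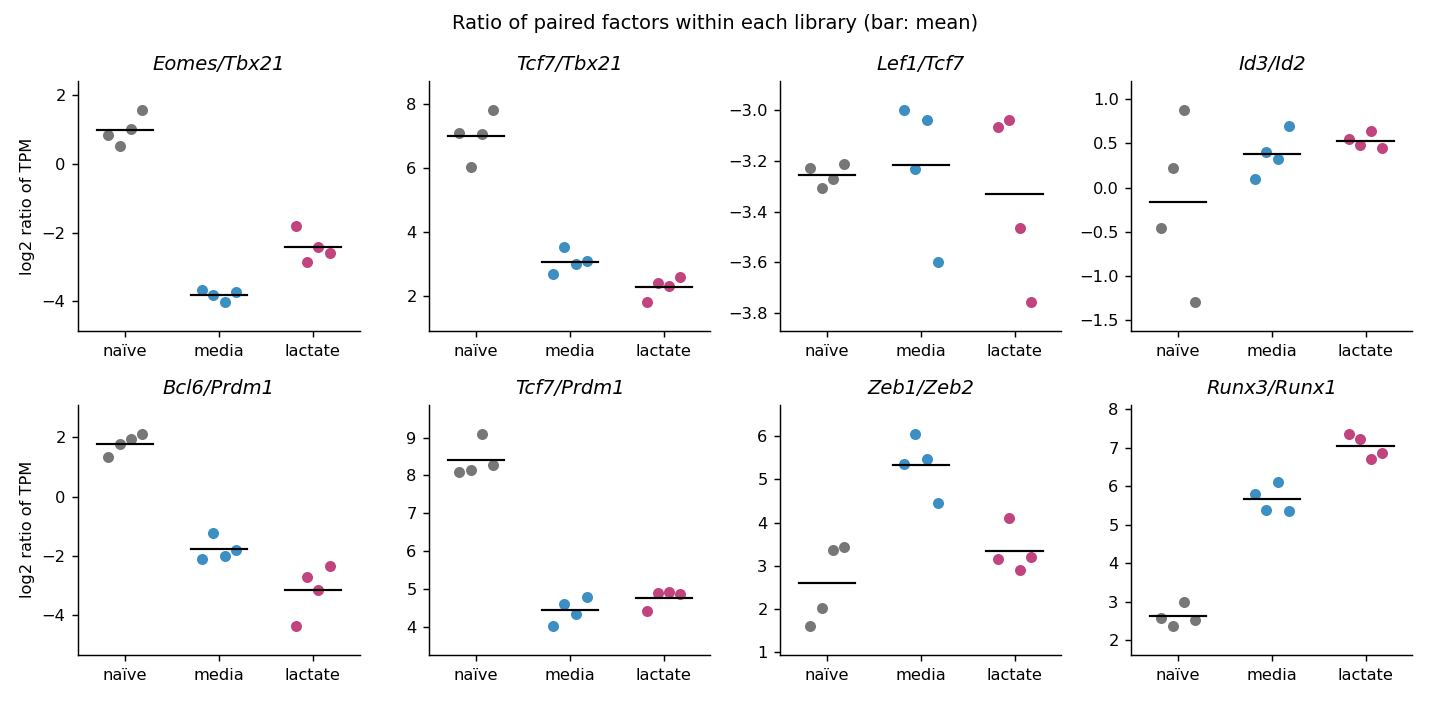
Log2 ratio of the TPM of paired factors within each library, by group, with bars at the mean of 4. Lactate and media do not overlap for Eomes/Tbx21, Tcf7/Tbx21, Bcl6/Prdm1, Zeb1/Zeb2 and Runx3/Runx1, and they overlap for Lef1/Tcf7, Id3/Id2 and Tcf7/Prdm1.

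Ratios within a library do not depend on scaling between libraries. They are a description without a test. Eomes/Tbx21, Bcl6/Prdm1, Zeb1/Zeb2 and Runx3/Runx1 each hold a factor called between lactate and media, so their separation in part repeats that result. As single genes, 44.7% of all tested genes did not overlap between these groups. The ratio of Tcf7 to Tbx21 in TPM, which sets a naïve and memory factor against an effector factor, was 65.4 to 225.9 in naïve cells, 6.48 to 11.5 in media and 3.51 to 6.04 with lactate. The 3 groups did not overlap, although neither gene passed the test between lactate and media. The ratio of Tcf7 to Prdm1 was 16.3 to 27.7 in media and 21.4 to 30.2 with lactate, with overlap. The ratio of Id3 to Id2 was 1.06 to 1.62 in media and 1.37 to 1.56 with lactate and spanned 0.407 to 1.84 in naïve cells.

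The genes these factors work with and act on were read from 3 lists, with the same model. Whether the calls of single list genes hold with the donor as a block or with 1 library left out was not tested. Of all tested genes, 13.9% were higher and 11.1% lower between lactate and media, 28.5% and 29.0% between media and naïve, and 33.0% and 32.0% between lactate and naïve. Of 24 partners and relatives of the factors, 23 were tested, and between lactate and media 0 were higher and 5 were lower; the median over the list was a log2 fold change of -0.27. The edgeR likelihood ratio test, DESeq2 and limma voom also called 0 higher, and at an unadjusted p of at most 0.05 edgeR gave 2 higher, Tcf3 and Hopx. The 5 genes lower with lactate were Runx1, Tcf12, Bcor, Ncor1 and Foxo1. Bcor (174.4 to 131.1 CPM, log2 fold change -0.41, edgeR adjusted p = 0.00947) is a corepressor that binds Bcl-6. Ncor1 (430.4 to 288.0 CPM, -0.58, adjusted p = 0.00374) is also a corepressor. Foxo1 (207.8 to 154.9 CPM, -0.42, adjusted p = 0.00647) is a factor that maintains the naïve and memory state. Klf2, which drives S1pr1, had mean levels of 1804, 107.1 and 27.2 CPM in naïve, media and lactate libraries (lactate against media -1.98 ± 0.55 SE on the log2 scale, edgeR adjusted p = 0.0134). Between media and naïve, 4 of the 23 were higher and 10 lower, and between lactate and naïve 3 were higher and 12 lower.

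Of 15 targets or markers of the effector side, 3 were higher with lactate than in media and 1 was lower, against 13.9% and 11.1% of all tested genes; the median over the list was 0.49 on the log2 scale. The 3 were Ifng, which encodes interferon-γ (6.15 to 104.0 CPM, log2 fold change 4.09), Prf1, which encodes perforin (37.2 to 295.2 CPM, 2.99), and the chemokine receptor Cxcr3 (12.0 to 26.7 CPM, 1.16). The chemokine Ccl5 fell from 7.59 to 2.13 CPM (log2 fold change -1.84). The marker of terminal effector cells Klrg1 was at most 0.0707 CPM in every activated library, and Cx3cr1 was at most 0.439 CPM. Between media and naïve 5 of the 15 were higher and 7 lower, against 28.5% and 29.0% of all, and between lactate and naïve 7 were higher and 6 lower, against 33.0% and 32.0%. Among those lower in both were Klrg1, Cx3cr1, Gzma and Itgam. These were below 1 CPM in every activated library and entered the test only through the naïve libraries. Those libraries also carry NK and myeloid markers, and the part of these in the differences was not tested.

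Of 15 targets or markers of the naïve and memory side, 1 was higher with lactate than in media and 6 were lower, against the same 13.9% and 11.1%; the median over the list was -0.95 on the log2 scale. The chemokine receptor Ccr7 fell (513.2 to 257.7 CPM, log2 fold change -0.99, edgeR adjusted p = 0.00721), as did the receptors Cd27 (134.0 to 59.5 CPM, -1.17), Cd28 (540.8 to 279.3 CPM, -0.95) and Slamf6 (81.2 to 33.9 CPM, -1.26). Axin2, a target of TCF and LEF factors, fell from 12.1 to 6.13 CPM (-0.97, edgeR adjusted p = 0.00807). Actn1 rose from 123.9 to 181.7 CPM (0.55). Il7r, the interleukin-7 receptor of memory precursors, went from 153.4 CPM to 167.4 CPM (log2 fold change 0.13 ± 0.37 SE, edgeR adjusted p = 0.824). Between media and naïve 2 of the 15 were higher and 9 lower, against 28.5% and 29.0% of all, and between lactate and naïve 2 were higher and 11 lower, against 33.0% and 32.0%. The 2 higher in both were Cd28 and Bcl2. Cd28 had a mean of 168.1 CPM in naïve cells, so its fall with lactate was from a raised level and not to below naïve. Ccr7 and Cd27 were not called between media and naïve (log2 fold changes of -0.28 and -0.08, edgeR adjusted p = 0.330 and 0.633).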

How the data were processed

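RNA was sequenced in 12 libraries of mouse CD8+ T cells, grouped by the sample labels into naïve, media and lactate with 4 each. By the methods of the study and the submitters' processing notes, the authors demultiplexed with bcl2fastq 2.20.0.422, mapped reads to GRCm38 with STAR 2.7.5b, discarded PCR duplicates, and with featureCounts assigned reads of unique position to Ensembl exons. The deposited values are raw counts per gene, not normalized, for 13780 genes already limited to expressed genes. The library kit marks strand, but whether counting used strand is not given in the sources used here, so exon overlaps are given.

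Here R 4.3.3, edgeR 4.0.16, limma 3.58.1 and DESeq2 1.42.0 were used. The 13767 genes that reached 1 CPM in at least 3 libraries were scaled by TMM and entered 1 edgeR quasi-likelihood fit of the 3 group means, without a block. Tests were two-sided, Benjamini-Hochberg adjustment ran across these genes, and calls needed an adjusted p of 0.01 or less. The SE is the log2 fold change over the square root of F, and CPM are TMM-scaled. TPM use the gene lengths of the table. For Tcf7 and Zeb2 these differ from the exon union in GENCODE M21, from which coordinates and overlaps were taken. The model was run on simulated counts drawn without donor or run effects, so that run cannot check the choice to fit no block. An exact permutation test of 4 against 4 has 70 arrangements and a smallest two-sided p of 0.0286.

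Libraries of the same donor deviated together from their group means (correlations over genes of 0.374, 0.211 and 0.553), but media and lactate replicates 2, which share a title number and not a donor, had 0.297. The labels hold 3 donor tags for activated cells, and repeats of a tag in the low and high run were read as different mice, which gives the 5 donors the series states. The title numbers do not all follow the donors. A donor block was an alternative. All 10 factors, their neighbours with overlapping exons and the lists' genes called between lactate and media are named, and up to 4 others per list, and 1 gene that this rule selects is not reported here. Factors, lists and tests were chosen with earlier results of these data known. Promoter windows are from RefSeq (GRCm38.p6), and all 10 factors matched. Alternatives covered the test, the scaling, the filter, the samples in the fit, blocks, the library run, the threshold and each library left out.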

Additional observations from a re-analysis of the deposited data

Results flagged for a closer look

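Id3 in media replicate 4, the only media library of the high run, had 114.8 CPM, while the nearest other media library had 43.5 CPM. That gap was 0.946 of the whole range of the 4 media libraries, which is above Dixon's 95% critical value for 4 samples. Of 30 groups of 4 (10 factors in 3 conditions) this was the 1 that stood out, and chance marks about 1 in 20. Without this library the log2 fold change of Id3 between lactate and media was 0.82 (edgeR adjusted p = 0.0633), against 0.31 with it. Id2 in the same library had 96.6 CPM against at most 55.6 CPM in the other media libraries.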

How the results depend on the processing

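Over the alternatives, the signs of the log2 fold changes held in all comparisons except for Id2 and Id3. Between lactate and media, Id2 (-0.24) and Id3 (-0.38) turned lower within the high run, which holds 1 media library, and between lactate and naïve the log2 fold change of Id3 ran from -0.42 (without naïve replicate 4) to 0.0045 (without naïve replicate 3). The number of factors called between lactate and media was 4 as reported. With single libraries left out it ran from 2 (without media replicate 2, lactate replicate 2 or lactate replicate 3) to 6 (without naïve replicate 4). With the donor as a paired block it was 1, Eomes, and the count over all genes went from 3451 to 992. In that fit the libraries of the 2 donors with 1 activated library carry no information. With the donor as a random effect in limma voom, chosen after seeing the data, 6 factors (Eomes, Lef1, Prdm1, Bcl6, Zeb2 and Runx3) and 5424 genes were called, and Lef1 (-0.49, adjusted p = 0.00453) and Prdm1 (-0.70, adjusted p = 0.00123) were among them. The title number as a block left 4 factors called. At an adjusted p of at most 0.05, 6 factors and 5461 genes were called, and without media replicate 2, 2252 genes. The other settings gave 4 to 6 factors. Of 260 alternatives of single factors between lactate and media, 225 left the call as reported, 16 lost it and 19 gained it. The gains were of Lef1 and Prdm1. The lactate minus media differences of the log2 ratios are the same with CPM as with TPM, since gene lengths cancel, and they moved by less than 1 SD between libraries with 0.5 added to each count and with single libraries left out. Between media and naïve the count ran from 7 to 9 and between lactate and naïve from 6 to 8, and in neither case could the donor block be fitted, since the labels tie no naïve library to a donor of activated cells. Zeb2 in media rests on 25 to 52 counts per library and Bcl6 with lactate on 27 to 126, which limits the precision of both.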
